A study of Mus musculus with 35 samples.

Results

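The genes described here are the clustered histone genes of the mouse: every protein-coding gene whose name starts with *Hist1h*, *Hist2h*, *Hist3h* or *Hist4h* in the deposited annotation. This rule gave 67 of the 21893 protein-coding genes. They comprise 6 genes for the linker histone H1, 18 for H2A, 18 for H2B, 12 for H3 and 13 for H4. In the count table, 60 of them have a feature of their own and 7 lie at 6 loci built from long Iso-seq reads, where *Hist1h1e* and *Hist1h2be* share a locus, so that 66 of 55356 counted features stand for them. Of the coding bases in GENCODE M21, the span of this locus holds 0 of 378 for *Hist1h2be*, so that its coding mRNA is not counted there, and the locus of *Hist3h2a* holds 125 of 390. On GRCm38.p6, 54 lie in the *Hist1* cluster (chr13:21715763-23934851), 10 in the *Hist2* cluster (chr3:96219865-96270132), 2 at *Hist3* (chr11:58948920-58972972) and 1 at *Hist4* (chr6:136801553-136804415). A further 3 histone-named genes were left out because the annotation lists them as pseudogenes.

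RNA was sequenced from adult C57BL/6J mice of both sexes, from brain, cerebellum, heart, colon and gonad, where the female gonad is the ovary and the male gonad the testis. The 29 libraries fell into 10 groups by tissue and sex, of 3 libraries each, but for 2 from male heart. The libraries were stranded and depleted of ribosomal RNA rather than selected for poly(A), which keeps histone mRNAs that lack a poly(A) tail. Iso-seq cDNA was primed at poly(A), from pools of brain, cerebellum, heart and colon or from gonads, and entered the counts only through the annotation.

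Most clustered histone genes are transcribed in S phase, when new DNA needs packaging, and their short mRNAs end in a stem-loop bound by SLBP in place of a poly(A) tail. Some members also yield polyadenylated mRNAs, through which cells outside S phase can make histones. In the male germ line, the variants encoded by *Hist1h1t* (H1T), *Hist1h2aa* (TH2A) and *Hist1h2ba* (TH2B) enter chromatin around meiosis, before transition proteins and protamines replace most histones in spermatids.

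Total counts per library ran from 11742417 (female colon replicate 1) to 36194255 (male brain replicate 2), with a median of 24403774. Colon libraries held 11742417 to 18890658 counts and testis libraries 28459258 to 30925443. Levels are given as CPM, the counts of a gene scaled to a common library total, or, wherever genes are compared with each other, per kilobase of exon as well (FPKM). A group of more than 5 libraries is given by its lowest, median and highest value. Intervals and floors cover counting error only.

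Marker genes matched the tissue labels, though less clearly for ovary. The 6 colon epithelium markers summed to 18817 ± 3761 CPM (SD, n = 6) in colon, with *Car1* the most abundant, and to at most 190 CPM in any other library. The 3 cardiomyocyte markers summed to 36800 ± 11270 CPM (SD, n = 5) in heart, and the 4 neuron markers to 3626 ± 452 CPM in brain and 1629 ± 272 CPM in cerebellum (SD, n = 6 each). The 3 cerebellar neuron markers summed to 1094 ± 253 CPM in cerebellum and 13.6 ± 10.1 CPM in brain. Of 8 ovary markers, all reached a mean of 1 FPKM in ovary. There, 7 were higher than in female brain, cerebellum and heart, while *Gdf9* was lower, and the cause was not tested. The 8 summed to 561, 957 and 764 CPM in ovary but to 302 to 571 CPM in heart, so these sums overlapped. The 7 markers of round and elongating spermatids summed to 11431 to 13897 CPM in testis, the 8 markers of spermatogonia and spermatocytes to 416 to 516 CPM, and the 5 markers of testis somatic cells to 1731 to 2501 CPM.

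Female heart replicate 3 stood apart from the other 4 heart libraries. Its 7 immune markers summed to 279 CPM against 17.3 to 26.9 CPM, with *Ptprc* the most abundant in heart, and its 5 red blood cell markers to 4679 CPM, below the others. Its 22 S-phase genes summed to 318 CPM against 145 to 175 CPM. Among members, *Hist1h1a* read 33.3 FPKM there and 6.35 to 10.7 FPKM in the other heart libraries. The part of these cells in the heart values was not tested, but without this library the 5 tissue comparisons gave member counts within 1 of those reported.

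Of the 6 colon libraries, 3 carried more than 5 CPM of spermatid genes. The 7 spermatid markers summed to 16, 0.937 and 10.5 CPM in the female libraries and 1.22, 0.106 and 8.25 CPM in the male ones, with *Prm2* the most abundant and *Acrv1* at 0 in colon. In brain, cerebellum, heart and ovary the same sum ran from 0.051 to 1.23 CPM. Results for testis variants in colon are therefore given with and without female replicates 1 and 3 and male replicate 3, a choice made after the values were seen. This leaves 1 female and 2 male colon libraries, so that the spread of female colon is then taken from the other groups, and colon against ovary is not read in that setting.

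The summed share of the library taken by all members was 0.102% ± 0.0187 in brain (SD, n = 6), 0.136% ± 0.0300 in cerebellum (n = 6), 0.0756% ± 0.0179 in heart (n = 5) and 0.211% ± 0.0532 in colon (n = 6). It was 0.272%, 0.416% and 0.349% in the ovary libraries and 0.398%, 0.476% and 0.503% in the testis libraries. The widest 95% Wilson interval of any library spanned 0.00531 percentage points. Heart and colon did not overlap with each other, nor did either gonad with brain, cerebellum, heart or colon, whereas ovary and testis overlapped. In bulk samples, fewer cells of a type and less RNA per cell cannot be told apart.

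The 3 testis variants made up most of the testis sum. Without *Hist1h1t*, *Hist1h2aa* and *Hist1h2ba*, the remaining 63 features took 0.164%, 0.181% and 0.201% of counts in testis and 0.271%, 0.415% and 0.348% in ovary. On that sum, by library totals, the ovary libraries lay above every other library, and testis lay within the range of colon, as the plot of summed shares shows. With TMM scaling, ovary replicate 1 (scaling factor 1.45) no longer lay above every testis and colon library. Without the 2 loci that join several genes as well, the means were 0.146% ± 0.0172 in testis and 0.328% ± 0.0682 in ovary (SD, n = 3 each). With TMM scaling, which changes the effective library size, the sum over all members was 1004 CPM in heart, 2590 CPM in ovary and 5328 CPM in testis, against 756, 3454 and 4594 CPM without it.

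**Figure D1:**
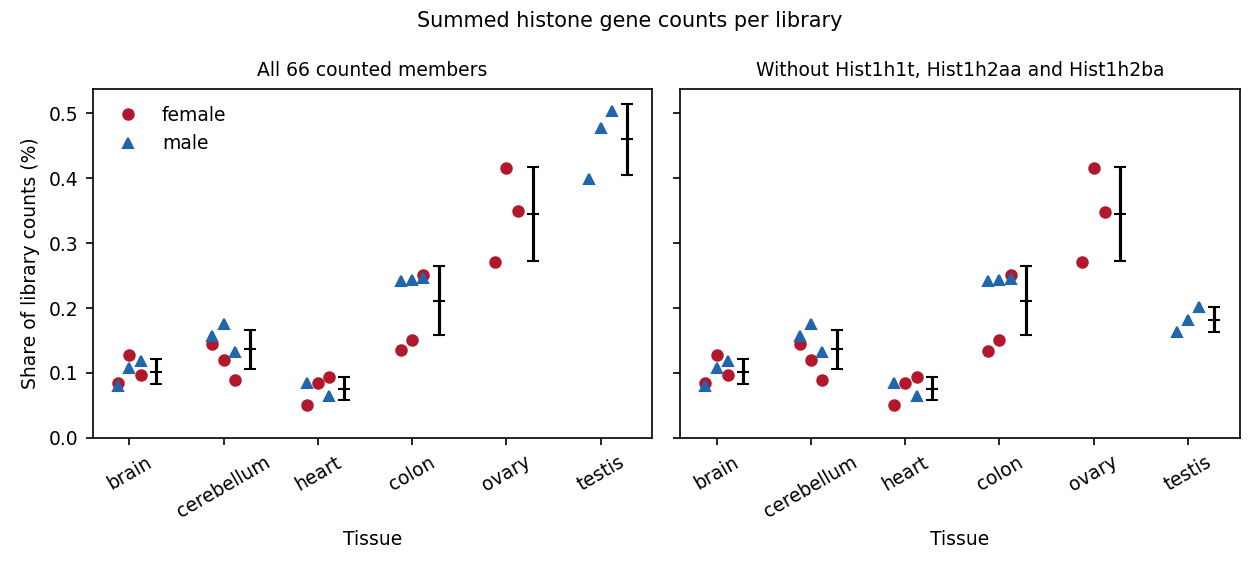
Summed counts of the 66 counted members (left) and of the 63 without *Hist1h1t*, *Hist1h2aa* and *Hist1h2ba* (right) as percent of library counts, by tissue. Each point is a library (circles female, triangles male) and the bars give the tissue mean ± SD; testis falls from a mean of 0.459% to 0.182% without the 3 variants, while ovary stays at 0.345%.

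The histone types differed in how they were divided among tissues. H3 genes summed to 243 ± 56.9 CPM in ovary (SD, n = 3) and 103 ± 32.1 CPM in colon, but only 38.0 ± 4.93 CPM in testis, near brain (48.0 ± 12.8) and cerebellum (42.2 ± 13.3). H2B genes summed to 2155 ± 306 CPM in testis against 442 ± 79.7 CPM in ovary, and H2A genes to 569 ± 44.5 against 217 ± 40.5 CPM. The H2A sums include the locus that *Hist3h2a* shares with *Trim17*, and without it they were 231 ± 35.2 and 176 ± 32.2 CPM. For H4 the order was reversed, with 671 ± 114 CPM in testis and 1588 ± 330 CPM in ovary. For H1 the gonads differed by less than the SD of ovary, at 1160 ± 98.9 CPM in testis and 964 ± 225 CPM in ovary, whereas TMM scaling put testis higher, at means of 1346 and 723 CPM.

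Of the 65 features with any count, 47 had their highest mean FPKM in ovary, 12 in testis, 4 in cerebellum and 2 in colon, and 37 had their lowest in heart and 15 in testis. With TMM scaling the highest mean was in ovary for 37, testis for 18, cerebellum for 5 and colon for 5. *Hist2h3c1* had 0 counts in every library. All of its 1825 exon bases overlap *Gm20634* on the same strand, where reads may be assigned to neither gene, so the 0 does not show a silent gene. Among the 60 features with a tissue mean of at least 1 FPKM, 75.0% were highest in ovary and 16.7% in testis, against 23.1% and 25% of 16516 protein-coding genes. With TMM scaling the shares were 61.7% and 25% of members against 11.0% and 29.2% of 16490 protein-coding genes. Their median tau, an index of tissue restriction from 0 (even) to 1 (restricted), was 0.739, against 0.680 for those protein-coding genes, but 0.667 against 0.688 with TMM scaling. The median member had 35.3 FPKM in ovary, 14.2 in colon, 9.25 in testis, 6.93 in brain, 6.46 in cerebellum and 3.62 in heart.

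**Figure D2:**
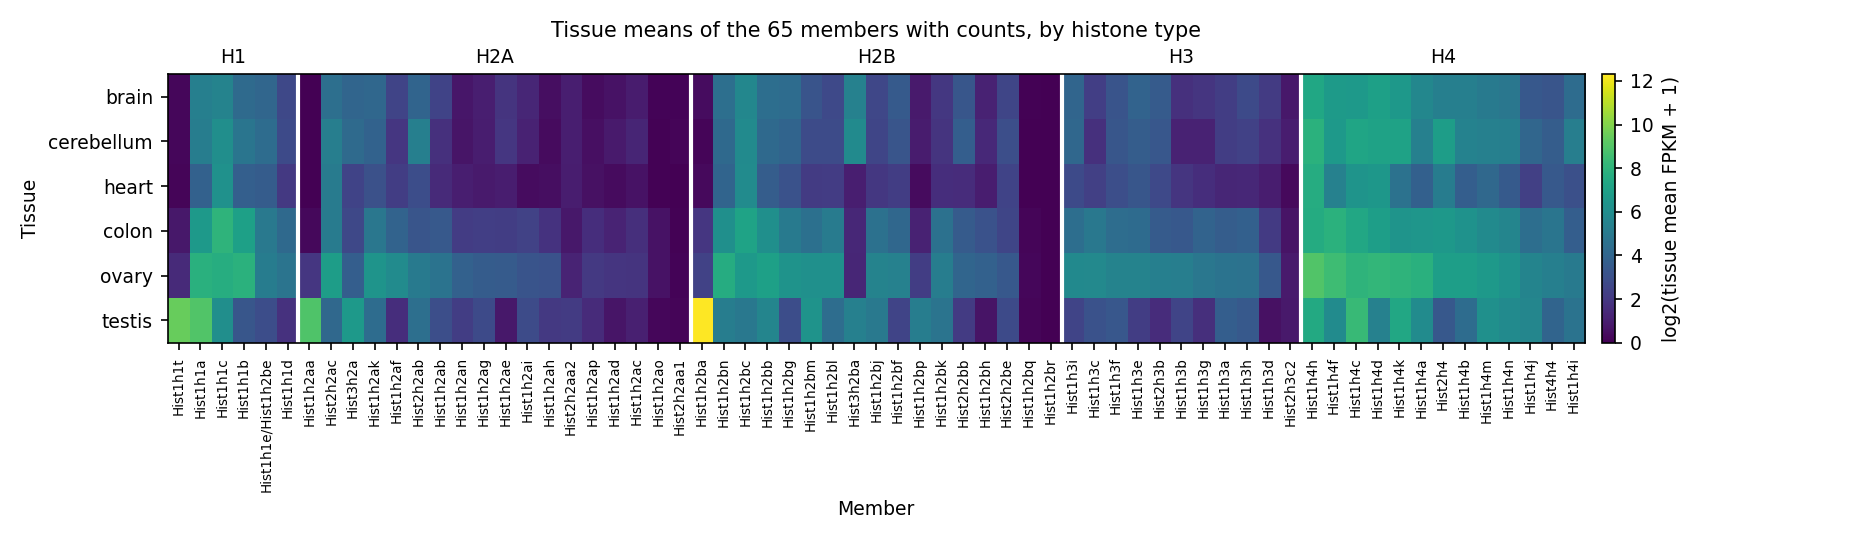
Tissue means of the 65 features with counts, as log2(FPKM + 1), with tissues in rows and features in columns grouped by histone type. *Hist1h2ba*, *Hist1h1t* and *Hist1h2aa* are bright in testis alone, and ovary is the brightest row for 47 features (37 with TMM scaling).

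To compare tissues, edgeR's quasi-likelihood test was run on 29911 genes that passed a filter on low counts, 62 of the 66 member features among them, and called at a Benjamini-Hochberg adjusted *P* under 0.05. The *P* values measure the spread between these libraries, since the labels do not say whether each came from a separate animal. The comparisons share libraries, since each tissue serves in several of them, so the members' values are given for each comparison by itself.

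The testis variants come first. *Hist1h2ba* (ENSMUSG00000050799, chr13:23933773-23934156, minus strand) read 4202, 5426 and 5597 FPKM in the testis libraries. It read 0, 0.284 and 0.747 FPKM in brain, 0, 0.107 and 0.273 in cerebellum, and 0.321, 0.831, 0, 0 and 0 in heart. In ovary it read 1.59, 5.86 and 5.47 FPKM. Every testis library was thus far above every other library, and outside testis only colon and ovary exceeded 1 FPKM in any library. Its testis level was 10.77 ± 0.78 (log2, SE) above ovary by edgeR's quasi-likelihood test (Benjamini-Hochberg adjusted *P* = 3.42e-11), higher in 3 of 3 testis libraries. It was also called higher than the mean of the other 5 tissues (adjusted *P* = 4.55e-19 in the same test), where the fitted value depends on how the 0 counts of both male heart libraries are treated and is not given.

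*Hist1h1t* (ENSMUSG00000036211, chr13:23695814-23696725, plus strand), which encodes the linker histone of spermatocytes, read 631, 705 and 759 FPKM in testis. In ovary it read 1.34, 1.81 and 2.23 FPKM, and in brain, cerebellum and heart at most 0.545 FPKM. The ranges did not overlap. It was 9.21 ± 0.57 (log2, SE) higher in testis than in ovary (edgeR quasi-likelihood test, Benjamini-Hochberg adjusted *P* = 6.20e-13). It was called higher than in the other tissues as well (adjusted *P* = 1.61e-21 in the same test), and it too had 0 counts in both male heart libraries.

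*Hist1h2aa* (ENSMUSG00000060081, chr13:23934462-23934851, plus strand), the H2A partner, read 402, 573 and 458 FPKM in testis and 1.42, 4.84 and 2.28 FPKM in ovary. It had 0 counts in all 6 brain libraries, in 5 of 6 cerebellum libraries, 4 of 5 heart libraries and 4 of 6 colon libraries. A floor of 3 counts per library corresponds to 0.213 to 0.315 FPKM in brain. Against that floor, its testis mean of 478 FPKM was at least 1708-fold higher than brain. Against ovary, where every library had counts, testis was 7.97 ± 0.49 (log2, SE) higher (edgeR quasi-likelihood test, Benjamini-Hochberg adjusted *P* = 2.14e-11), and 8.60 without ovary replicate 2. Of all counts in the 29 libraries, testis held 99.9% for *Hist1h2ba*, 99.6% for *Hist1h1t* and 99.5% for *Hist1h2aa*.

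Low counts of all 3 variants were present in ovary. The ovary libraries held 11, 56 and 59 counts of *Hist1h2ba*, 22, 41 and 57 of *Hist1h1t*, and 10, 47 and 25 of *Hist1h2aa*. Spermatid markers in the same libraries summed to 0.444, 0.924 and 0.605 CPM, no higher than in brain (0.660 to 1.23 CPM), with *Spaca1* the most abundant and *Acrv1* at 0. All 3 variants were higher in ovary than in female brain, cerebellum and heart, by 3.61 ± 0.71 (log2, SE) for *Hist1h2ba* and 2.81 ± 0.51 for *Hist1h1t* (edgeR quasi-likelihood test, Benjamini-Hochberg adjusted *P* = 1.90e-04 and 5.53e-05). For *Hist1h2aa* the fitted value depends on how a count of 0 in brain is treated, and it was called as well (adjusted *P* = 4.05e-07 in the same test).

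In colon the variants were read beside the spermatid markers. *Hist1h2ba* had 51, 0 and 21 counts in the female colon libraries and 5, 2 and 6 in the male ones, and *Hist1h1t* had 27, 4 and 9 and then 6, 3 and 5. The highest value of each was in female colon replicate 1, which also had the most spermatid marker reads. Colon was called higher than brain, cerebellum and heart for *Hist1h2ba* and *Hist1h1t* (edgeR quasi-likelihood test, Benjamini-Hochberg adjusted *P* = 2.89e-03 and 5.73e-03). The fitted values depend on how the 0 counts in male heart are treated and are not given. With the 3 colon libraries that had raised spermatid markers left out, none of the 3 variants was called. *Hist1h2aa* then had 0 counts in each remaining colon library and *Hist1h2ba* 0 in the remaining female one. The libraries left out, chosen for transcripts of testis, held 51, 21 and 6 counts of *Hist1h2ba*. The lost calls thus follow in part from that choice, and nothing is read from them. *Hist1h2aa* had 2 counts in female colon replicate 1 and 4 in male colon replicate 3, was called in colon with all libraries, and was no longer called without male colon replicate 3 alone.

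Germline histone variants encoded outside the clusters were read beside them. Of 12 such genes, 11 were found and 9 tested, and 8 of these were higher in testis than in the other tissues (40.4% of all genes) and 8 higher than in ovary, where 1 was lower (37.8% and 26.4%). In testis, *H1fnt*, a linker histone of spermatids, reached 471 ± 9.65 FPKM, *Hils1* 413 ± 26.4, *H2al2a* 225 ± 27.3 and *1700024P04Rik* 159 ± 4.86 (SD, n = 3). The exception was *H1foo*, the linker histone of oocytes, at 7.31 ± 4.16 FPKM in ovary and 0.0404 ± 0.0351 in testis. In ovary against female brain, cerebellum and heart, *H1foo* was the only gene of this list called, and in colon against brain, cerebellum and heart *H1fnt* and *Hils1* were called higher, at means of 0.213 and 0.195 FPKM. In colon against ovary, 2 were higher and 1 lower (20.4% and 23.4% of all genes). With the 3 colon libraries that had raised spermatid markers left out, *H1fnt* had 3 counts left in colon, and nothing is read from calls of these genes in that setting.

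Genes of the exchange of histones for protamines followed the same division. Of 8 genes, 7 were higher in testis than in the other tissues (40.4% of all genes) and 7 higher than in ovary (37.8%). *Prm2* reached 9646 ± 1288 FPKM in testis, *Prm1* 4611 ± 409 and *Tnp1* 4052 ± 167, and *Brdt*, which reads acetylated histones, 96.3 ± 12.2 (SD, n = 3). Per length, *Hist1h2ba* at 5075 ± 761 FPKM was thus near *Prm1*. Outside testis, 1 of the 8 was higher and 2 were lower in ovary than in the female tissues (23.2% and 23.7% of all genes). In colon 5 were higher and 2 lower than in brain, cerebellum and heart (30.5% and 31.5%), and 5 were higher than in ovary (20.4%). *Prm1*, *Prm2*, *Tnp1* and *Tnp2* are also among the spermatid markers by which 3 colon libraries were left out. Without these libraries fewer of the 8 were higher in colon, which for the shared genes follows from that choice. Nothing is therefore read from the fall, and *Tnp2* had 5 counts left in colon. The remodeler *Chd5* was also high in brain, at 23.4 ± 1.97 FPKM (SD, n = 6), against 46.9 ± 1.49 in testis.

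Within the linker histones, each tissue had its own mixture. *Hist1h1a* read 450, 538 and 511 FPKM in testis, 169, 269 and 227 in ovary, and 56.9, 110 and 130 in colon. *Hist1h1b* read 8.89, 7.66 and 10.1 FPKM in testis, 172, 280 and 235 in ovary, and 73.1, 129 and 164 in colon. The pair thus had like levels in ovary and colon and differed in testis, where *Hist1h1a* was the highest of all libraries and *Hist1h1b* lay at the level of heart (7.14 to 22.8 FPKM).

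In testis, *Hist1h1a* was 1.80 ± 0.31 (log2, SE) higher than in ovary and *Hist1h1b* differed by -4.07 ± 0.32 (edgeR quasi-likelihood test, Benjamini-Hochberg adjusted *P* = 1.55e-05 and 1.97e-11). *Hist1h1c* read 162, 256 and 338 FPKM in colon, 163, 258 and 179 in ovary, and 62.3, 65.0 and 75.6 in testis. In brain it read 34.7, 45.8 and 52.4 FPKM, and in heart 50.3, 76.3, 88.4, 87.8 and 70.6. Colon and ovary were both above all libraries of the other tissues for this gene and overlapped each other.

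As a share of summed H1 FPKM, *Hist1h1t* made up 54.4% ± 1.16 and *Hist1h1a* 38.9% ± 1.62 in testis (SD, n = 3). In heart, *Hist1h1c* made up 66.6% ± 7.11 (n = 5), and in colon 48.2% ± 5.66 (n = 6). Per length, ovary was divided mainly among *Hist1h1b* (32.1% ± 1.33), *Hist1h1a* (31.1% ± 1.13) and *Hist1h1c* (28% ± 2.16). *Hist1h1d*, chosen after its values were seen, had lower levels per length, 25.8 ± 5.87 FPKM in ovary and 2.41 ± 0.367 in testis. The locus shared by *Hist1h1e* and *Hist1h2be* read 34.9 ± 8.67 and 6.52 ± 0.768 FPKM. These shares and levels depend on exon length, 7425 bases for *Hist1h1d* and 741 for *Hist1h1a*. By counts, *Hist1h1d* had 2958, 6023 and 4754 in ovary, above the 2262, 4968 and 4724 of *Hist1h1a*. In testis it had 479, 491 and 646, against 9482, 12338 and 11648.

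The leading genes of the core histones, named here after the values were seen, differed between some tissues and were shared by others. Of summed H2B FPKM, *Hist1h2ba* made up 93.3% ± 0.612 in testis (n = 3), *Hist1h2bc* 52.5% ± 11.5 in heart (n = 5), and *Hist1h2bn* 24.0% ± 3.45 in ovary (n = 3). Of H2A, *Hist1h2aa* made up 71.2% ± 3.34 in testis (83.4% ± 2.36 without the locus of *Hist3h2a* and *Trim17*), and *Hist2h2ac* 54.1% ± 8.04 in heart. In cerebellum, *Hist2h2ab* and *Hist2h2ac* were near each other, at 31.2% ± 6.95 and 30.2% ± 2.06 of H2A (n = 6). H3 had no gene with a mean share above 26.9% in any tissue, with *Hist1h3a* at 21.1% ± 1.21 the first in testis. Per length, H4 was led by *Hist1h4h* in brain, cerebellum, heart and ovary, by *Hist1h4f* in colon and by *Hist1h4c* in testis (29.4% ± 1.18). This order depends on exon length. By counts, *Hist1h4d* (1138 bases) exceeded *Hist1h4h* (470 bases) in every brain, cerebellum and ovary library, and in heart the order differed by library. *Hist1h4d* also exceeded *Hist1h4f* (391 bases) by counts in every colon library.

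Testis was compared with the mean of the other 5 tissues to ask which members go with spermatogenesis. Of 62 tested members, 28 were higher, where the background over all genes was 40.4%, and 19 were lower, where it was 26.6%. The shares of members called, 45.2% and 30.6%, were thus near the background. The median member difference was 0.36 (log2) and the median over all genes 0.10. The libraries did not overlap for 7 of the higher and 4 of the lower members, against 23.3% and 7.48% of all genes called without overlap. Higher and lower calls were 9 and 3 of 16 for H2A, 9 and 5 of 16 for H2B, 6 and 4 of 13 for H4, 2 and 3 of 6 for H1, and 2 and 4 of 11 for H3.

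Besides the variants and *Hist1h1a*, the higher members in testis included 2 counted features at *Hist3*. *Hist3h2a*, an H2A gene, is counted at a locus that also holds *Trim17* and spans 125 of the 390 coding bases of *Hist3h2a*. The values include *Trim17*, and the part of each gene in them was not separated. This locus read 92.6, 97.6 and 100 FPKM in testis, 9.24, 14.5 and 11.2 in ovary, 13.4, 15.3 and 15.9 in brain, and 3.34 to 5.51 in heart. *Hist3h2ba*, its H2B neighbor, read 38.6, 41.7 and 38.7 FPKM in testis, 1.72, 2.03 and 0.812 in ovary, 31.8, 42.2 and 47.0 in brain, and 46.0, 56.9 and 76.0 in cerebellum. The testis libraries of the locus of *Hist3h2a* and *Trim17* were thus above all others, whereas those of *Hist3h2ba* overlapped with brain and lay below cerebellum. The locus of *Hist3h2a* and *Trim17* was 3.6 ± 0.11 (log2, SE) higher in testis than in the other tissues and 3.68 ± 0.21 higher than in ovary, and *Hist3h2ba* was 5.36 ± 0.46 higher than in ovary (edgeR quasi-likelihood test, Benjamini-Hochberg adjusted *P* = 3.84e-21, 2.65e-14 and 9.67e-11).

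*Hist1h2bp*, an H2B gene, was high in testis and low elsewhere. It read 34.6, 39.3 and 35.0 FPKM in testis, 3.15, 4.37 and 3.57 in ovary and at most 2.76 in any other library. Its difference from the other tissues was 5.51 ± 0.33 (log2, SE; edgeR quasi-likelihood test, Benjamini-Hochberg adjusted *P* = 1.57e-14). *Hist1h2bm*, in contrast, was high in both gonads, at 70.4, 78.1 and 87.0 FPKM in testis and 56.8, 85.3 and 69.3 in ovary, and read 4.0, 8.93 and 10.2 in brain.

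The members lowest in testis, with no overlap, were *Hist2h4*, *Hist1h3e*, *Hist1h4d* and *Hist1h2bc*. *Hist2h4*, an H4 gene, read 8.56, 6.71 and 13.2 FPKM in testis, 82.2, 152 and 117 in ovary, 64.3, 120 and 168 in cerebellum, and 18.1, 40.7, 41.6, 48.6 and 24.6 in heart. Each testis library lay below every other library. The log2 differences from the other tissues were -2.61 ± 0.31 for *Hist2h4*, -1.85 ± 0.34 for *Hist1h3e*, -1.49 ± 0.24 for *Hist1h4d* and -1.11 ± 0.21 for *Hist1h2bc* (edgeR quasi-likelihood test, Benjamini-Hochberg adjusted *P* = 1.89e-08, 2.30e-05, 4.41e-06 and 3.40e-05). Testis levels were 2.44 to 4.90 FPKM for *Hist1h3e*, 36.2 to 48.8 for *Hist1h4d* and 26.2 to 34.4 for *Hist1h2bc*.

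Compared with ovary alone, 11 of 62 members were higher in testis, where the background was 37.8%, and 32 were lower, where it was 26.4%. The members' median was -0.89 (log2) and that of all genes 0.15. Without overlap between the 3 libraries of each gonad were 8 of the 11 and all 32, against 32.5% and 26% of all genes. Of 11 H3 genes 8 were lower, with a median of -2.38, against medians of -1.36 for H1, -0.77 for H4, -0.58 for H2A and -0.43 for H2B.

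Among the lower members, *Hist1h2bh* read 0.586, 0.713 and 0.387 FPKM in testis against 11.2, 16.4 and 11.7 in ovary, *Hist1h3d* 0.478, 0.466 and 0.495 against 8.21, 10.8 and 9.75, and *Hist1h2bg* 6.65, 3.61 and 9.0 against 60.7, 93.6 and 82.5. These differences were -3.90 ± 0.45, -3.68 ± 0.45 and -2.99 ± 0.32 (log2, SE; edgeR quasi-likelihood test, Benjamini-Hochberg adjusted *P* = 2.79e-08, 7.70e-08 and 5.47e-09), and that of *Hist2h4* was -3.00 ± 0.35. Small differences after TMM scaling were those of *Hist1h2bj*, *Hist1h2bk* and *Hist1h4k*, at 0.07 ± 0.32, 0.15 ± 0.43 and -0.03 ± 0.32, none called. A missed call does not show equal levels, and by library totals the testis libraries of *Hist1h2bj* and *Hist1h2bk* lay below those of ovary.

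The scaling of libraries mattered for these counts. With DESeq2's size factors in edgeR, the all-gene median moved from 0.10 to 0.23 where testis was set against the other tissues, from 0.15 to 0.32 where it was set against ovary, and from -0.13 to 0 for colon against brain, cerebellum and heart. With library totals and no TMM, it was -0.16, -0.38 and 0, and 0.35 and -0.30 for ovary against the female tissues and colon against ovary, which were 0 with TMM. Of all calls, 44.1% were then higher in testis than ovary (58.8% with TMM), 69.8% higher in ovary than in the female tissues (49.4%) and 32.1% higher in colon than ovary (46.7%). Members higher in testis than ovary numbered 7 with library totals and 11 with DESeq2's size factors.

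Ovary was compared with female brain, cerebellum and heart. Of 62 members 56 were higher, where the background was 23.2%, and 1 was lower, where it was 23.7%. The members' median was 2.12 (log2) against 0 for all genes. The libraries of 54 of the 56 did not overlap, whereas those of the lower member did (15.2% of all genes were higher and 3.51% lower without overlap), and all 6 H1, 14 of 16 H2A, 14 of 16 H2B, 10 of 11 H3 and 12 of 13 H4 genes were higher. *Hist1h1b* was 3.31 ± 0.21 higher, *Hist1h2bm* 3.35 ± 0.25, *Hist1h2bj* 2.99 ± 0.25, *Hist1h2bb* 2.52 ± 0.21 and *Hist1h1a* 2.63 ± 0.23 (log2, SE; edgeR quasi-likelihood test, Benjamini-Hochberg adjusted *P* between 5.63e-13 and 2.24e-10).

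For *Hist1h2bj* the ovary libraries read 33.3, 56.1 and 43.5 FPKM, against 1.78 to 6.44 FPKM in female brain, cerebellum and heart, and for *Hist1h2bb* 91.2, 143 and 149 against 5.42 to 26.9. All ovary libraries were above all of these. The member lower in ovary was *Hist3h2ba* (-3.69 ± 0.41). The locus of *Hist3h2a* and *Trim17*, at -0.33 ± 0.16, was called lower as well without ovary replicate 2 (-0.55, adjusted *P* = 0.0139 in edgeR). Per length, *Hist1h4h* had the highest level of any H4 gene, at 441, 523 and 523 FPKM in ovary. It read 109 to 276 FPKM in brain, cerebellum, heart and colon and 152, 169 and 208 in testis. By counts, *Hist1h4d* was above it in ovary, at 4343, 9354 and 10185 against 3741, 6119 and 6904.

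Colon was compared with brain, cerebellum and heart, with the sexes averaged. Of 62 members 46 were higher, where the background was 30.5%, and 5 were lower, where it was 31.5%. The members' median was 1.15 (log2) against -0.13 for all genes. The libraries of 18 of the 46 did not overlap, whereas those of the 5 lower members did (11% of all genes were higher and 4.63% lower without overlap), and all 6 H1, 12 of 16 H2A, 12 of 16 H2B, 8 of 11 H3 and 8 of 13 H4 genes were higher. With the 3 colon libraries that had raised spermatid markers left out, the median of the 63 members then tested was 1.01 (log2), against -0.23 for all genes. Of 7 immune markers 6 were higher in the same comparison, with *Jchain* the most abundant in colon and none at 0. They summed to 217, 279 and 657 CPM in colon and to 6.88 to 26.9 CPM in brain, cerebellum and heart apart from female heart replicate 3. The part of immune cells in the members' levels was not tested.

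*Hist1h2bk* read 8.24, 24.6 and 36.7 FPKM in colon against 1.01 to 5.29 in brain, cerebellum and heart, *Hist1h2bj* 10.6, 25.3 and 32.4 against 1.68 to 8.50, and *Hist1h2bb* 46.6, 73.0 and 98.4 against 5.42 to 26.9. These ranges were apart. The log2 differences were 2.90 ± 0.25, 2.16 ± 0.19 and 1.92 ± 0.16, beside 2.56 ± 0.15 for *Hist1h1b* and 1.84 ± 0.14 for *Hist1h1c* (edgeR quasi-likelihood test, Benjamini-Hochberg adjusted *P* between 3.29e-14 and 6.35e-11). The 5 lower members were *Hist3h2ba* (-3.19), *Hist3h2a* counted with *Trim17* (-1.26), *Hist2h2ab* (-1.19), *Hist1h4i* (-0.75) and *Hist2h2be* (-0.38), of which *Hist1h4i* was chosen after its values were seen. *Hist2h2be* was not called with DESeq2's size factors (-0.20, adjusted *P* = 0.113) or without the 3 colon libraries (-0.30, adjusted *P* = 0.0649).

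Female colon was compared with ovary, the other tissue with high levels. Of 62 members 1 was higher, where the background was 20.4%, and 36 were lower, where it was 23.4%. The members' median was -1.02 (log2) against 0 for all genes. The count of lower members depended on single libraries: it was 23 without female colon replicate 1, 25 without replicate 2, 44 without replicate 3 and 27 without ovary replicate 2. For 35 of the 36 the libraries did not overlap, against 23.1% of all genes.

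*Hist2h2ab*, an H2A gene, read 4.43 to 6.20 FPKM in female colon and 34.8, 34.0 and 29 in ovary, a log2 difference of -2.17 ± 0.31. For *Hist2h2ac* it was -1.76 ± 0.30, for *Hist1h4k* -1.71 ± 0.33, for *Hist1h2bm* -1.69 ± 0.34 and for *Hist2h2be* -1.0 ± 0.20 (edgeR quasi-likelihood test, Benjamini-Hochberg adjusted *P* between 2.04e-06 and 2.11e-04). The higher member was *Hist1h2bc*, at 0.87 ± 0.25 (adjusted *P* = 6.35e-03 in edgeR), which was not called without female colon replicate 2 (0.53, adjusted *P* = 0.102), when no member was higher. There were 2 higher members without any 1 of female brain replicate 2, female cerebellum replicates 1 and 3, ovary replicate 2, female heart replicates 2 and 3, female colon replicate 1, male brain replicate 1 and testis replicate 2. Without ovary replicate 2, *Hist1h1c* read 0.89 (adjusted *P* = 0.0146), against 0.63 ± 0.26 (adjusted *P* = 0.0504) with all libraries.

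S-phase genes were read in the same comparisons. The 22 genes summed to 222 ± 8.61 CPM in brain, 250 ± 18.5 in cerebellum, 193 ± 70.9 in heart, 595 ± 93.5 in colon, 916 ± 28.1 in ovary and 896 ± 60.4 in testis. By library totals these were near each other in testis and ovary, whereas with TMM scaling testis was higher, at 1038 ± 61.9 against 682 ± 46.1 CPM. By contrast, the members without the 3 variants summed to 1822 ± 188 CPM in testis and 3450 ± 722 CPM in ovary (means of 2113 and 2587 CPM with TMM scaling). Of the 22, 19 were higher and 1 lower in ovary than in female brain, cerebellum and heart (23.2% and 23.7% of all genes), and 14 higher and 1 lower in colon than in these tissues of both sexes (30.5% and 31.5%), with medians of 1.66 and 0.90 (log2). In colon 2 were higher and 12 lower than in ovary (20.4% and 23.4%), with a median of -0.83. In testis 15 were higher and 2 lower than in the other tissues (40.4% and 26.6%), and 10 higher and 7 lower than in ovary, near the 37.8% and 26.4% of all genes, with medians of 1.06 and 0.21, where the members had 0.36 and -0.89. Per length, *Top2a* read 34.7 ± 5.77 FPKM in testis and 17.9 ± 2.32 in ovary, and *Mcm6* 6.38 ± 0.509 and 24.2 ± 2.41 (both chosen after their values were seen).

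Some members had their highest mean in cerebellum, namely *Hist3h2ba*, *Hist2h2ab* and *Hist1h4i*. *Hist2h3c2*, chosen after its values were seen, did as well, but with means of 0.992 FPKM there, 0.877 in ovary and 0.754 in brain it was low in each. *Hist3h2ba* made up 27.2% ± 3.89 of summed H2B FPKM in cerebellum and 20.3% ± 1.45 in brain (SD, n = 6 each). *Hist2h2ab* read 21.9, 37.2 and 66.9 FPKM in cerebellum, 11.8, 14.8 and 19.2 in brain, and 3.8, 8.54, 4.88, 7.93 and 7.21 in heart. Cerebellum lay above brain and heart throughout for this gene, and overlapped with ovary.

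Sexes were compared over brain, cerebellum, heart and colon. With edgeR 0 of 62 members were higher in males and 0 lower, where the backgrounds were 0.0301% and 0.0736%. At an unadjusted *P* under 0.05 there were 9 higher and 1 lower (3.51% and 6.1% of all genes), and DESeq2 called 1 higher and 0 lower (0.231% and 0.642%). The lowest adjusted values in edgeR were 0.131 for *Hist2h2ab* (0.64 ± 0.15, log2, SE) and 0.263 for *Hist1h4c* (0.50 ± 0.15), the latter chosen after its values were seen. Without female heart replicate 2, 1 member was higher. For a difference between the sexes that varies among the 4 tissues, edgeR called 0 members, where the background was 0.0167%, with 3 at an unadjusted *P* under 0.05 (6.71% of all genes) and 0 called by DESeq2 (0.632%).

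Of 12 genes for transcription and 3′ processing of histone mRNA, 8 were higher and 1 lower in testis than in the other tissues (40.4% and 26.6% of all genes), and 5 higher and 2 lower than in ovary, near the 37.8% and 26.4% of all genes. *Slbp*, whose protein binds the stem-loop, read 31.7 ± 1.58 FPKM in testis, 19.7 ± 1.18 in ovary, 13.0 ± 1.83 in colon and 5.87 ± 1.27 in heart. It was 1.67 (log2) higher in testis than in the other tissues (edgeR quasi-likelihood test, Benjamini-Hochberg adjusted *P* = 2.53e-15). *Zfp473*, which encodes a zinc finger protein of the processing complex, was 2.76 higher, while the U7 snRNP gene *Lsm11* was at -1.54. In ovary 3 were higher and 1 lower than in female brain, cerebellum and heart (23.2% and 23.7% of all genes), in colon 2 were higher and 5 lower than in brain, cerebellum and heart (30.5% and 31.5%), and 7 were lower in colon than in ovary (23.4%).

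Of 12 histone chaperones, 10 were higher and 1 lower in testis than in the other tissues (40.4% and 26.6% of all genes) and 6 higher and 2 lower than in ovary (37.8% and 26.4%). *Chaf1a*, a subunit of the CAF-1 chaperone that deposits H3 and H4 at replication, read 46.0 ± 1.46 FPKM in testis, 6.18 ± 2.26 in ovary and 1.95 ± 0.553 in colon. *Asf1b*, which hands it H3 and H4, read 13.9 ± 1.53, 3.09 ± 0.939 and 1.97 ± 0.407 FPKM. Both were higher in testis than elsewhere, by 4.59 and 4.03 (log2), while 8 of 11 H3 genes were lower in testis than in ovary. In ovary 9 chaperones were higher than in the female tissues (23.2% of all genes), in colon 6 were higher and 3 lower than in brain, cerebellum and heart (30.5% and 31.5%), and 6 were lower in colon than in ovary (23.4%).

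Of 12 replication-independent variants, which are not made in S phase alone, 6 were higher and 5 lower in testis than in the other tissues (40.4% and 26.6% of all genes). Against ovary, 3 were higher and 5 lower in testis (37.8% and 26.4%). *H2afx*, whose protein marks DNA breaks, read 90.5 ± 8.53 FPKM in testis and 23.2 ± 6.47 in ovary, a log2 difference of 3.42 from the other tissues. *H1f0*, a linker histone of cells that have stopped dividing, read 14.9 ± 1.47 FPKM in testis, 82.7 ± 17.1 in ovary and 87.2 ± 23.5 in colon, a difference of -1.84 (edgeR quasi-likelihood test, Benjamini-Hochberg adjusted *P* = 1.44e-18 and 4.92e-10). In ovary 7 were higher than in the female tissues (23.2% of all genes), in colon 7 were higher and 4 lower than in brain, cerebellum and heart (30.5% and 31.5%), and 1 was higher and 7 lower in colon than in ovary (20.4% and 23.4%).

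A set of 5 members known to give polyadenylated mRNA, *Hist1h1c*, *Hist1h2bc*, *Hist2h2be*, *Hist3h2a* and *Hist4h4*, was read as a group. Their summed level was 198 ± 19.3 CPM in brain, 262 ± 39.9 in cerebellum, 219 ± 29.5 in heart, 608 ± 126 in colon, 560 ± 126 in ovary and 524 ± 36.7 in testis. In testis 338 ± 13.3 CPM of this came from the locus of *Hist3h2a* and *Trim17*, and the other 4 summed to 186 ± 24.6 CPM there and 519 ± 117 CPM in ovary. Higher and lower calls were 1 and 1 in testis relative to the other tissues, 1 and 3 for testis against ovary, 3 and 2 for colon against brain, cerebellum and heart, and 1 and 2 for colon against ovary, and 3 were higher in ovary than in the female tissues. In the same order, 40.4% and 26.6%, 37.8% and 26.4%, 30.5% and 31.5% and 20.4% and 23.4% of all genes were higher and lower, and 23.2% were higher in ovary, so that counts out of 5 say little. *Hist2h2be* read 4.47 to 5.41 FPKM in brain, 5.34 to 6.38 in testis and 8.89 to 10.8 in ovary, and *Hist4h4* 6.65 to 10.6, 11.5 to 18 and 26.6 to 50.7. The call of *Hist4h4* between testis and ovary (-0.77, adjusted *P* = 0.0236 in edgeR) was lost without ovary replicate 2 (-0.49, adjusted *P* = 0.175).

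Iso-seq models at 6 loci show where poly(A)-primed copies ended. At *Hist1h1c* the exon ran 836 bases past the stem-loop, and at *Hist1h1e* 2806 bases past it. At *Hist1h2bp* the model had 2 exons, and the stem-loop (chr13:21787923-21787938) lay in the intron, 32 bases after the first exon's end. At *Hist3h2a* 1 of 7 transcripts held the stem-loop and went on for 2761 exon bases into exons of *Trim17*, so its FPKM includes *Trim17*. *Hist1h2bc* (2 exons) and *Hist2h2be* (1 exon of 3000 bases) had no stem-loop within 150 bases after the stop codon, the stretch searched, although each had 1 match farther on. The reference span of *Hist1h2be* overlaps the locus that it shares with *Hist1h1e*, while its coding exon and stem-loop lie outside, so the model shows no end of its coding mRNA.

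**Figure D3:**
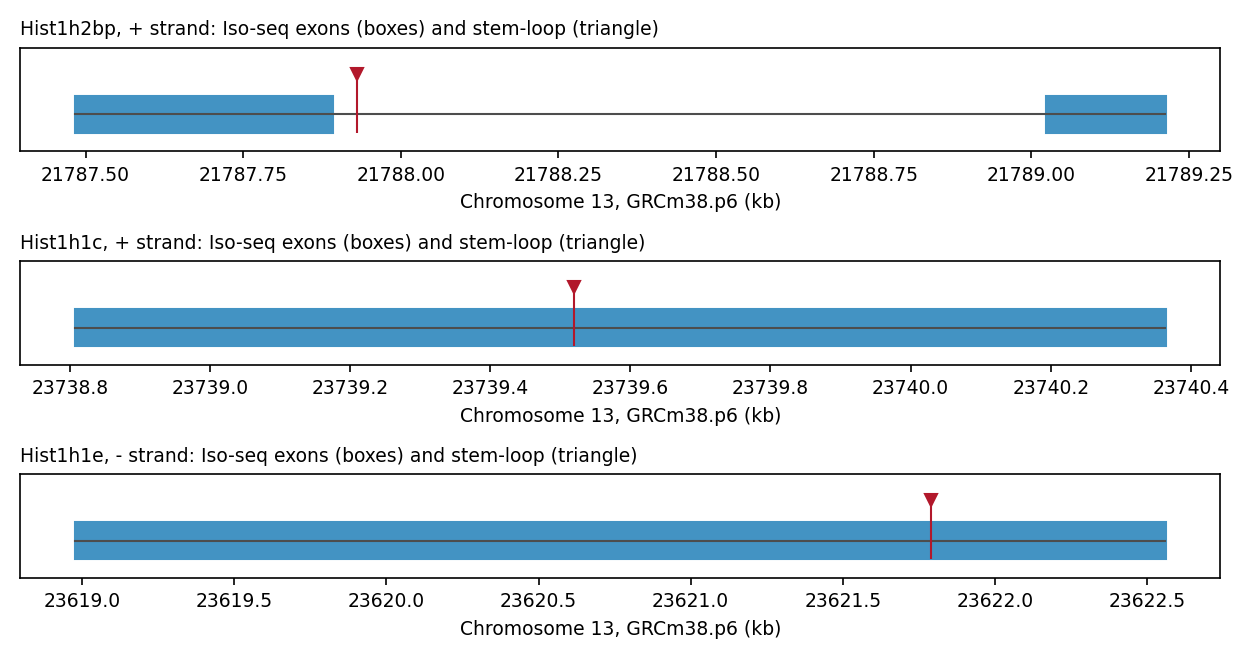
Iso-seq exons (boxes) and stem-loop (triangle) at *Hist1h2bp*, *Hist1h1c* and *Hist1h1e* along chromosome 13 of GRCm38.p6, in kilobases. The stem-loop of *Hist1h2bp* lies in the intron, and the exons of the other members run past theirs by 836 and 2806 bases.

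A stem-loop of the histone form was searched within 150 bases after the stop codon, as a stem of 6 paired bases around a loop of 4 bases that starts TTT. Of 52 members with at least 16 annotated bases after the stop codon in GENCODE M21 (GRCm38), 44 had it, against 2.03% of 44248 coding transcripts. The other 15 members have fewer annotated bases there, *Hist1h2aa* and *Hist1h2ba* among them. The stem-loop began 21 to 58 bases after the stop codon, with a median of 31. There were 6 distinct sequences, of which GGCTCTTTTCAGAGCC was in 26 members, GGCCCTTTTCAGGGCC in 7, all of them H4 genes, and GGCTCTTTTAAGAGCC in 6. AATAAA was in the last 50 bases of 14 members, against 53.0% of the coding transcripts. The sites of 7 members are shown with the stem-loop in capitals, to set each of the 6 forms beside a gene described above. *Hist1h1t* carries it at chr13:23696520-23696545 (plus strand), *Hist1h1c* at chr13:23739507-23739532 (plus), *Hist1h2bp* at chr13:21787918-21787943 (plus), *Hist1h4h* at chr13:23531453-23531478 (plus), *Hist2h2ac* at chr3:96220413-96220438 (minus), *Hist2h4* at chr3:96262934-96262959 (minus) and *Hist1h4j*, chosen for its sequence, at chr13:21735432-21735457 (plus).
Hist1h1c: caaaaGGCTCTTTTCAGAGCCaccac
Hist1h2bp: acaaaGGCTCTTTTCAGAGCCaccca
Hist1h1t: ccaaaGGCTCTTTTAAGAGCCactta
Hist2h2ac: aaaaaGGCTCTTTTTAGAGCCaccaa
Hist1h4h: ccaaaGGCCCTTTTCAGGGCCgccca
Hist2h4: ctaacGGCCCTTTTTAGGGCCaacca
Hist1h4j: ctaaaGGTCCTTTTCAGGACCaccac

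The testis-high *Hist1h1t* thus carries a stem-loop of the same form as members that are low in testis, *Hist1h3e* among them. For *Hist1h2bp* the site lies in the intron of the Iso-seq model over which its reads were counted, so that model lacks it. *Hist1h2ba* and *Hist1h2aa* end at their stop codon in the annotation, so these letters could not be looked for.

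Promoters from RefSeq (GRCm38.p6), from 250 bases before to 50 after each start, were matched for 62 of 67 members and searched on both strands. CCAAT was in 53 of 62 (85.5%), against 37.4% of all 32851 promoters, and TATAAA in 35 (56.5%), against 13.6%. The octamer ATTTGCAT was in 14 (22.6%), against 1.74%. CCAAT was in all 50 matched H1, H2A, H2B and H3 genes but in 3 of 12 H4 genes. The octamer was in 7 of 18 H2A and 7 of 16 H2B genes and in no gene of the other types, which says only that these letters are not in this window.

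Of the H2A and H2B genes, 12 pairs stand head to head, with 175 to 305 bases between their gene starts in GENCODE M21, and *Hist1h2aa* and *Hist1h2ba* are the pair farthest apart. Within pairs the levels were unequal. *Hist1h2aa* and *Hist1h2ba* had means of 478 and 5075 FPKM in testis and 2.85 and 4.31 in ovary. *Hist1h2ae* and *Hist1h2bg* had 0.716 and 6.42 FPKM in testis and 10.5 and 79.0 in ovary, and *Hist1h2ag* and *Hist1h2bj* 5.88 and 30.2 in testis and 10.8 and 44.3 in ovary (*Hist1h2ae* and *Hist1h2ag* chosen as partners of named genes). By these means the H2B gene had the higher level in both gonads in 8 of the 12 pairs and the H2A gene in 3, *Hist2h2ac* and *Hist2h2be* among the latter. Members of a pair differ in how many reads can be assigned to them, with 22.4% unique windows in *Hist1h2ag* and 49.6% in *Hist1h2bj*, for example (defined below). Each H2A gene of these pairs also overlaps another gene on the opposite strand, from 129 bases (*Hist1h2aa*) to 283 (*Hist2h2ac*). Of the H2B genes, only *Hist2h2be* does. The strand setting of counting was not stated, so a loss of reads from the H2A genes alone could not be told apart from lower levels. *Hist1h2an* and *Hist1h2bp*, in contrast, had 3.77 and 36.3 FPKM in testis and 12.9 and 3.70 in ovary, where only the difference of *Hist1h2bp* between the gonads was called (*Hist1h2an* chosen as its partner).

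The promoters of the 3 testis variants are shown with that of *Hist1h1a*, the other linker histone that leads in testis, because all 4 were higher there. Each is the 250 bases before the RefSeq start, and capitals mark the 3 motifs on either strand. That of *Hist1h2aa* is chr13:23934187-23934436 (plus strand) and that of *Hist1h2ba* chr13:23934157-23934406 (minus strand), which overlap as opposite strands of the stretch between the genes. That of *Hist1h1t* is chr13:23695561-23695810 (plus) and that of *Hist1h1a* chr13:23763418-23763667 (plus).
Hist1h2aa: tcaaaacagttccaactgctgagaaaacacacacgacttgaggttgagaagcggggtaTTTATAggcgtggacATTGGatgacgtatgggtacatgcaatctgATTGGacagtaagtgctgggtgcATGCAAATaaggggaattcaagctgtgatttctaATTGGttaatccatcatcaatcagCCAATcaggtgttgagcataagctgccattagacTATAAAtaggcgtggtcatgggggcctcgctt
Hist1h2ba: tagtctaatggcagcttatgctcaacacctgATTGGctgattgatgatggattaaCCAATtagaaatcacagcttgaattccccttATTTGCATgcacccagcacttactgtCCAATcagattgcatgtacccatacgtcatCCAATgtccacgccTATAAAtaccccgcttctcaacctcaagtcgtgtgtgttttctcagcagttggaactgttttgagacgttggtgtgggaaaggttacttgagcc
Hist1h1t: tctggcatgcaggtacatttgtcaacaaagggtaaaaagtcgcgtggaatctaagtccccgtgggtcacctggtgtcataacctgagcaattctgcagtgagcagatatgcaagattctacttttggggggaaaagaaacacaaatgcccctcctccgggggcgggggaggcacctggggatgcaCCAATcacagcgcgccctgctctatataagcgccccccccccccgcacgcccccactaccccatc
Hist1h1a: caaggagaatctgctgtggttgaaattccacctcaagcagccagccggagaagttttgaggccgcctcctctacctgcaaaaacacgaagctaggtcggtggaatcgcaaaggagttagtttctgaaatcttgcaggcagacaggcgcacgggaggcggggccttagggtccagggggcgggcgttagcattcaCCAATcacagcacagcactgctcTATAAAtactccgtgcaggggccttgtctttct

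The stretch shared by *Hist1h2aa* and *Hist1h2ba* held all 3 motifs, with CCAAT 4 times in either direction. The promoter of *Hist1h1t* held CCAAT and neither of the others in these letters. A match is a description of sequence and not a bound site.

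How well reads can be assigned to a member depends on its sequence, since only uniquely mapped reads were counted. Of 75-base windows along each member's transcript, a median of 61.5% were found in no other gene's transcript (GENCODE M21, genes that overlap the member aside). All windows were unique in 7 members, *Hist1h1a*, *Hist1h1b*, *Hist1h1t*, *Hist1h2aa* and *Hist2h4* among them, whereas 27 members had under 50% and 7 under 10%. *Hist1h2ba* had 66.8% unique windows, with *Hist1h2bj* the closest member, and *Hist3h2a* 99.2%. Exons of 42 members overlapped no other gene on either strand. Low levels of the least unique members, such as *Hist1h2ao* at 0.504 FPKM in ovary (6.90% unique, chosen after its values were seen), therefore could not be told apart from a loss of reads that map to several members.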

How the data were processed

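Raw counts per gene for 29 libraries were deposited; per the labels and methods, the authors made them with HISAT2 2.0.5 and featureCounts 1.6.3 on mm10 from uniquely mapped reads, after FastQC 0.11.8 and MultiQC 0.9, over an annotation that joined Iso-seq loci to ENSEMBL genes. The strand setting of counting was not stated. The deposited annotation gives positions on GRCm38.p6, and the deposited map pairs genes with Iso-seq loci by name only. FPKM used library totals and the union of exons. Counts were fitted over 10 groups with edgeR 4.0.16 in R 4.3.3 (TMM, low-count filter, quasi-likelihood test, Benjamini-Hochberg over 29911 genes), and the fit was tested on simulated data. Alternatives were DESeq2 1.42.0 and its size factors, library totals, other filters, blocks for replicate number and library code, leaving out each library, and, chosen after seeing the data, 3 colon libraries left out together. Named were the 3 testis variants, the 5 polyadenylated members, members at Iso-seq loci, the 5 highest tissue means, and per comparison up to 5 called members per direction without overlap; of each list, up to 4 genes with the smallest adjusted *P*. Members and lists were chosen with earlier results of these data known. No 2 libraries of a group were duplicates, and replicate numbers did not pair libraries across tissues. Many library codes share a first digit across tissues of a sex, such as 51, 52, 53 and 55 in males, and the labels do not say whether this marks 1 mouse. The main fit treated libraries as unpaired. With the library code block, 8 members were higher in testis than in ovary, against 11 in the main fit. Protein sequences were not used here.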

Additional observations from a re-analysis of the deposited data

How the results depend on the processing

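Of 2997 values recomputed for 81 results on 27 named members, 2946 kept their direction and their side of the threshold, and 2 called results changed sign. These were *Hist1h2aa* (-0.67) and *Hist1h2ba* (-0.97) for colon against brain, cerebellum and heart, with the 3 colon libraries with raised spermatid markers left out. Neither was then called, and with 0 counts in remaining colon libraries the fitted sign depends on how 0 is treated, so no reversal is read from it.

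Members higher in testis than in ovary numbered 7 with library totals (11 in the main fit), and 8 to 11 with the other alternatives. Members lower in ovary than in female brain, cerebellum and heart numbered 2 with DESeq2 and with the library code block (1 otherwise), and 1 to 2 when each library was left out in turn. Members higher in colon than in ovary numbered 0 with library totals and 2 with DESeq2, with DESeq2's size factors, with a minimum of 50 counts in 2 libraries, and with either block (1 otherwise), and 0 to 2 when each library was left out. Members lower in colon than in ovary numbered 23 to 44 when each library was left out (36 in the main fit), and 28 to 46 with the other alternatives. Members with the highest mean in colon numbered 5 with TMM-scaled library sizes (2 otherwise). The cause was not tested.

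With the replicate block, members higher in males than in females numbered 1, as with DESeq2, and 0 to 1 when each library was left out (0 otherwise).

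Depth limits members with few unique bases and those near 0 outside testis. Where a library left out leaves male heart with 1 library, or the 3 colon libraries left out leave female colon with 1, its spread is taken from the other groups.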
